A study of Mus musculus with 12 samples.

Results

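The comparison set the larger liver resection given with G-CSF and HNF4a (PH80_G+H, 80% resection, 3 libraries) against the standard resection (PH70, 70% resection, 3 libraries). Liver RNA was taken on postoperative day 3, and in every group the mice were male C57Bl/6J of wild-type genotype. The 6 libraries were chosen by their group labels, out of 12 in the series. The other 6 were the larger resection without agents (PH80) and an 80% resection arm that the labels call HC without explaining the name (PH80_HC). A gene was included when its normalised value reached 10 in at least 3 of the 6 libraries, which kept 12217 of the 13554 genes listed. The arm differs from PH70 in both the extent of resection and the agents, so in this comparison the 2 cannot be told apart. The sources used here do not give the dose, route, timing or form of G-CSF and HNF4a, the age of the mice, or whether each library is its own animal. P-values therefore measure only how far these libraries spread, and that spread may be technical.

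After partial hepatectomy the remaining hepatocytes enter the cell cycle from G1, copy their DNA and divide, while they continue to make plasma proteins, bile acids and the enzymes of drug metabolism. HNF4a is a nuclear receptor that maintains the expression of hepatocyte genes, among them those of bile acid synthesis, coagulation and cytochromes P450. G-CSF (gene Csf3) binds a receptor on cells of the granulocyte lineage (gene Csf3r), signals through STAT3, and mobilises neutrophils from bone marrow.

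Library depth ranged from 9720887 to 44526542 recovered reads over the 12 libraries, and the shallowest (PH70 replicate 3) and the deepest (PH80_G+H replicate 2) belonged to the groups compared. Among the 6 libraries compared, the same 2 had the steepest trend of the log2 value with transcript length, at 0.221 and 0.227 per doubling of length, against -0.068 to 0.099 in the other 4. Outside the comparison, PH80_HC replicate 3 had -0.273 and PH80 replicate 1 had -0.185, and these were kept. Results were also computed without PH70 replicate 3 and PH80_G+H replicate 2 together, the reduced set below, an alternative chosen after seeing the data. Albumin reads made up 8.96% to 11.7% of the values of the 6 libraries. Csf3 is not in the table analysed here. Values below are the deposited normalised reads, in the order of replicates 1, 2 and 3. Log2 differences are PH80_G+H minus PH70 on the scale of log2(value + 1), on which the change of a gene with few reads comes out too small, and an adjusted p is limma's, by the Benjamini-Hochberg method, unless another tool is named.

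The transcript of the agent's own gene was first compared in every library. Hnf4a (chr2:163506808-163572910, GRCm38) read 13577, 12742 and 10425 in PH80_G+H and 12438, 15554 and 12001 in PH70. The groups overlapped, with a log2 difference of -0.12 (95% interval -0.62 to 0.38), and PH80 read 7482, 12708 and 10237. Since the form in which HNF4a was given is not known here, this value does not check the treatment. Csf3r, the receptor of G-CSF, read 68.1, 48.5 and 146 in PH80_G+H and 49.6, 54.8 and 167 in PH70, where in each group the third library was the highest. Its log2 difference was 0.03, and 0.92 in the reduced set. None of the 19 tested genes of the G-CSF receptor and STAT3 pathway list reached an unadjusted p under 0.05 in either direction, none was called by limma, edgeR or DESeq2, and their median log2 difference was -0.0028 (0.07 in the reduced set). The 95% intervals of 9 of the 19 lay within 2-fold of PH70, beside 74.4% of all genes.

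A single gene passed the test between the treated larger resection and the standard one. Of 12217 genes tested, 1 (0.00819%) passed the threshold, the desmosomal cadherin Dsg1c, which helps to hold neighbouring epithelial cells together. Dsg1c read 68.4, 71.3 and 100.3 in PH70 and 5.52, 1.48 and 8.16 in PH80_G+H. It was 15.1-fold lower in the treated arm (log2 difference -3.91, SE 0.48, adjusted p = 0.0147), and the libraries did not overlap. PH80 was as low, at 4.22, 5.98 and 9.37. Dsg1c has close paralogs, Dsg1a and Dsg1b, and the sources used here do not say how reads were divided among them. The call was also made by edgeR (adjusted p = 0.0221) and DESeq2 (1.08e-10). It was lost when PH80_G+H replicate 1 or any of the PH70 libraries was left out singly, and in the reduced set, with adjusted p between 1.08e-10 and 0.154 over 24 alternatives and a log2 difference between -4.31 and -3.20.

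No other gene had an adjusted p below 0.0902. At an unadjusted p under 0.05 there were 725 genes (5.93%), 391 higher (3.2%) and 334 lower (2.73%) in the treated arm, and 461 without PH70 replicate 2. Count models made more or as many calls on the recovered reads, with 1 for edgeR and 67 (0.548%) for DESeq2, 38 higher (0.311%) and 29 lower (0.237%). A limma fit of the 6 libraries alone called 13. PH80 against the same PH70 libraries gave 486 calls (3.98%), 137 higher (1.12%) and 349 lower (2.86%), and 2635 genes (21.6%) at an unadjusted p under 0.05. The PH80 count was 303 without PH80_G+H replicate 3, 169, 59 and 273 without PH70 replicates 1, 2 and 3, and 123 and 156 without PH80 replicates 1 and 2. Both counts rest on the same PH70 libraries and on a shared estimate of the spread.

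Because a missed threshold does not show likeness, the width of the intervals was also read. The 95% interval of the log2 difference lay wholly within 2-fold for 9088 genes (74.4%) in PH80_G+H against PH70, and for 7390 (60.5%) in PH80 against PH70. It lay wholly beyond 2-fold for 17 genes (0.139%) and 115 genes (0.941%), respectively. The median absolute log2 difference from PH70 was 0.176 in the treated arm and 0.307 in PH80, and 275 and 863 genes, respectively, stood at least 2-fold apart. In the treated arm 1655 genes (13.5%) had no overlap with the PH70 libraries, and in PH80 3330 (27.3%). The median interval reached 0.535 to either side on the log2 scale with 3 libraries a group. For a typical gene, a smaller difference was not detectable even without adjustment for the number of genes tested. The intervals are not adjusted in this way, so larger differences could also miss the adjusted threshold. Rgs16 and Klf10, described below, missed it with log2 differences of -4.89 and -1.79.

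Distance between libraries was taken as the root mean square log2 difference over the 12217 genes. PH80_G+H libraries stood 0.463 to 0.677 from PH70 libraries (median 0.570 over 9 pairs). These distances overlapped the spread inside the groups, which was 0.455 to 0.650 within PH70 and 0.404 to 0.584 within PH80_G+H. Within PH80 the spread was 0.538 to 0.640, with the highest median of these 3 groups (0.638), and distances from PH80 libraries also hold that scatter. PH80 libraries stood 0.562 to 0.836 from PH70 (median 0.797), and PH80_HC libraries 0.493 to 0.983. Averaged over the 3 PH70 libraries, the distance was 0.590, 0.586 and 0.542 for PH80_G+H replicates 1 to 3 and 0.785, 0.818 and 0.619 for PH80, so each treated library lay nearer to PH70 than each PH80 library did. In the reduced set the medians were 0.522 for PH80_G+H to PH70 and 0.774 for PH80 to PH70, against a single distance of 0.455 within PH70 and 0.404 within PH80_G+H. No test was made of this order, since all these distances share the PH70 libraries. From PH80 the treated libraries stood 0.418 to 0.762 (median 0.593), close to their distance from PH70. Between group means the distance was 0.377 for PH80_G+H to PH70, 0.431 for PH80_G+H to PH80 and 0.575 for PH80 to PH70. The treated arm was thus nearer to PH70 by a small margin. Each mean holds the scatter of its 3 libraries, and this order was not tested either.

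**Figure D1:**
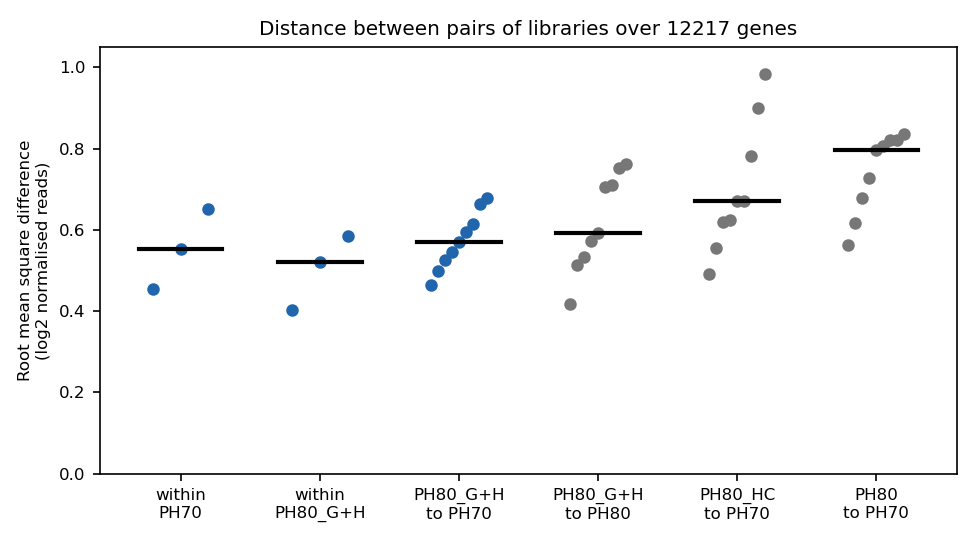
Root mean square log2 difference between pairs of libraries over 12217 genes. Each point is a pair and each bar a median; blue marks pairs of the groups compared and grey the pairs with PH80 or PH80_HC. The PH80_G+H to PH70 pairs (0.463 to 0.677) overlap the pairs within PH70 (0.455 to 0.650), and the PH80 to PH70 pairs have the median 0.797. Pairs within PH80 (0.538 to 0.640) are not drawn.

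For the genes that separated PH80 from PH70, the medians of the treated arm lay between the 2 resections. Among the 137 genes called higher in PH80, the median log2 difference from PH70 was 1.38 in PH80 and 0.63 in PH80_G+H. Among the 349 called lower it was -1.14 in PH80 and -0.50 in PH80_G+H. These genes were chosen on the PH80 values and both differences use the same PH70 libraries, so they are a description. Of the 137 genes, 112 stood at least 2-fold from PH70 in PH80 and 34 in the treated arm, and of the 349 the counts were 224 and 37. The intervals of 37 of the 137 and 166 of the 349 lay within 2-fold of PH70 in the treated arm, beside 74.4% of all genes.

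The 12 genes that led the PH80 changes did not all lie alike in the treated arm. Upp2, which breaks down uridine, read 5572, 5584 and 2038 in PH70, 2956, 1304 and 2975 in PH80_G+H and 231, 336 and 495 in PH80. The treated arm overlapped PH70 and exceeded PH80 in every library, and it differed from PH80 by a log2 difference of 2.74 (adjusted p = 0.0352). Cyp8b1, the sterol hydroxylase that sets the cholic acid share of bile acids, read 5987, 3947 and 4344 in PH70, 1599, 557 and 1776 in PH80_G+H and 423, 37.4 and 711 in PH80. Every treated library was below PH70 and 2 of the 3 were above all PH80 libraries, but neither difference passed the threshold (adjusted p = 0.778 against PH70 and 0.328 against PH80). Sult2a8, a hepatic sulfotransferase, read 12159.9, 10562 and 1915 in PH70, 4835, 1279.8 and 4383 in PH80_G+H and 544, 93.5 and 1782 in PH80, with the third PH70 library inside the treated range. Clec2h, a C-type lectin gene, read 568, 448 and 511 in PH70, 189, 160.3 and 214 in PH80_G+H and 74.5, 10.5 and 142 in PH80, a graded order with no overlap between neighbours. Its differences from PH70 and from PH80 did not pass in the treated arm in limma over all 12 libraries (adjusted p = 0.778 and 0.273). The limma fit of the 6 libraries alone called Clec2h against PH70 (adjusted p = 0.0407).

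Of the genes raised in PH80, Sult1e1, the estrogen sulfotransferase, read 4.24, 7.31 and 17.8 in PH70, 33.1, 41.1 and 16.3 in PH80_G+H and 181, 1008 and 93.7 in PH80. In the treated arm 2 of 3 libraries lay above the PH70 range, and all 3 lay below every PH80 library. Akr1b7, an aldo-keto reductase, read 58.7, 29.2 and 53.5 in PH70, 138, 134 and 184 in PH80_G+H and 369.9, 1974 and 354 in PH80. Wfdc3, a gene of the whey acidic protein domain family, read 14.5, 7.31 and 62.4 in PH70, 36.8, 91.5 and 97.2 in PH80_G+H and 433, 262 and 207 in PH80. Rab44, a small GTPase gene, read 9.68, 3.66 and 26.8 in PH70, 20.2, 23.3 and 19 in PH80_G+H and 80.2, 225 and 38.5 in PH80, with treated libraries inside the PH70 range. Prom1, a membrane glycoprotein of progenitor and duct cells, read 10.9, 16.5 and 35.7 in PH70, 69.9, 278 and 91.8 in PH80_G+H and 385, 388 and 204 in PH80. None of these 5 differed from PH70 past the threshold in the treated arm, nor from PH80 (adjusted p = 0.287, 0.224, 0.317, 0.253 and 0.49), so their place between the 2 resections is not shown beyond the spread.

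Other genes of this set overlapped the PH80 level and not that of PH70. Rgs16 (chr1:153740349-153745468), a regulator that shortens G protein signals and responds to fasting and the clock in liver, read 517, 362 and 421 in PH70, 22.1, 3.96 and 25.8 in PH80_G+H and 4.22, 12 and 5.21 in PH80. The treated libraries were all far below PH70 and overlapped PH80. The log2 difference from PH70 was -4.89 (SE 0.80), and with an adjusted p of 0.0902 it missed the limma threshold, whereas DESeq2 gave 0.00129 and edgeR 0.112. The limma fit of the 6 libraries alone called Rgs16 (adjusted p = 0.026). Ly6d (chr15:74762056-74763620), a lipid-anchored surface protein, read 209, 259.6 and 921 in PH70, 2159.7, 7099 and 4166 in PH80_G+H and 9209, 3451 and 5251 in PH80, with no overlap between PH70 and either larger resection (adjusted p = 0.126 for the treated arm, 0.0193 by DESeq2).

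Further genes kept away from PH70 in the treated arm were picked after their values were seen, from those with the smallest p-values. Ppp1r3g (chr13:35958839-35970388), a subunit that targets protein phosphatase 1 to glycogen, read 57.5, 87.7 and 66.9 in PH70, 1.84, 10.9 and 4.76 in PH80_G+H and 0, 0.748 and 1.04 in PH80 (log2 difference -3.61, adjusted p = 0.0902, DESeq2 1.09e-05). Gldn (chr9:54286486-54341786), a matrix-binding protein known from the nodes of nerve fibres, read 7.87, 3.66 and 13.4 in PH70, 80.9, 152 and 64.6 in PH80_G+H and 66.1, 81.5 and 110.4 in PH80. Nr4a1, an immediate early nuclear receptor, read 340.1, 634 and 551 in PH70, 58.9, 201 and 89.1 in PH80_G+H and 113, 130.1 and 58.3 in PH80. Klf10, an early response zinc finger factor, read 573, 912 and 642 in PH70, 166, 169.7 and 286 in PH80_G+H and 321, 126 and 158 in PH80. In each of these 4 the treated libraries and the PH80 libraries lay on the same side of PH70 with no overlap. Gabarapl1, which builds autophagosomes, read 11851, 10366 and 7394 in PH70, 4912, 3069 and 4220.1 in PH80_G+H and 2548, 2985 and 3103 in PH80. Txnip, the thioredoxin-binding protein that responds to glucose, read 2034, 1676 and 1844 in PH70, 749, 581 and 1127 in PH80_G+H and 745, 562 and 575 in PH80. Nox4, an oxidase that makes hydrogen peroxide, read 537, 622 and 506 in PH70, 259, 245 and 249 in PH80_G+H and 150.5, 108 and 224 in PH80. For Gldn, Nr4a1, Klf10, Gabarapl1, Txnip and Nox4, adjusted p-values against PH70 were between 0.11 and 0.127 in limma and between 4.49e-05 and 0.00276 in DESeq2. None of them differed from PH80 past the threshold. The limma fit of the 6 libraries alone called Ppp1r3g, Klf10, Gldn and Nox4 (adjusted p = 0.0494 for each), and not Nr4a1, Gabarapl1 or Txnip.

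**Figure D2:**
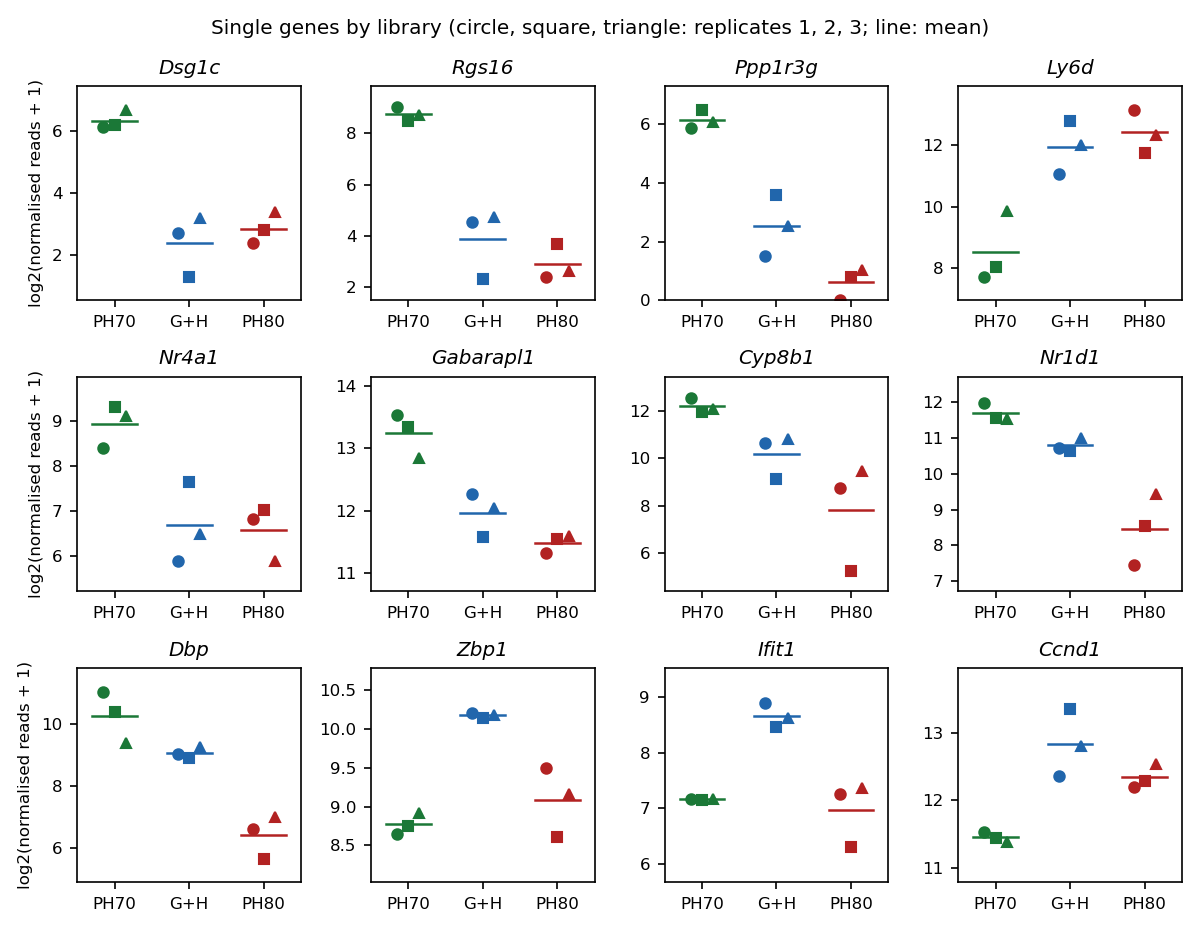
Normalised reads of 12 named genes as log2(value + 1) in PH70 (green), PH80_G+H (blue, G+H) and PH80 (red), 3 libraries each, with the mean as a line. In the treated arm Dsg1c, Rgs16, Ly6d and Nr4a1 overlap PH80 and not PH70, Ppp1r3g, Nr1d1 and Dbp sit between the 2 resections, and Zbp1 and Ifit1 are above both.

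A direct test compared the level of each gene between the treated arm and PH80, whichever of them lay nearer to PH70. It called 15 genes (0.123%), 14 higher (0.115%) and 1 lower (0.00819%) in the treated arm, and 1275 (10.4%) reached an unadjusted p under 0.05, 689 higher (5.64%) and 586 lower (4.8%). Nr1d1, the clock repressor REV-ERB alpha, read 4027, 3023 and 2955 in PH70, 1698, 1592 and 2057 in PH80_G+H and 173, 369 and 692 in PH80, and was 5.0-fold higher in the treated arm than in PH80 (adjusted p = 0.0308). Dbp, a clock output transcription factor, read 2113, 1339.9 and 671 in PH70, 529.8, 479 and 615 in PH80_G+H and 97, 50.1 and 129 in PH80, a difference of 6.22-fold from PH80 (adjusted p = 0.0244). Treated libraries were below all PH70 libraries in both genes, with log2 differences from PH70 of -0.90 and -1.20 that did not pass. Also called were Upp2 (above), Slc2a5, a fructose transporter (206, 165 and 174 in PH70, 121, 82.1 and 76.8 in PH80_G+H, 25.3, 20.2 and 27.1 in PH80), and B3galt1, a galactosyltransferase (556, 665 and 669 in PH70, 436, 396 and 418 in PH80_G+H and 146, 170.5 and 203 in PH80), both of which stood between the resections.

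Several of the 15 reached or passed the PH70 level. Pim3, a serine kinase, read 1006, 1512 and 1133 in PH70, 1959, 1427 and 1081 in PH80_G+H and 423, 459.8 and 312 in PH80. Lpin1, the phosphatidate phosphatase that feeds triglyceride synthesis, read 541, 779 and 1175 in PH70, 1166, 1448 and 741 in PH80_G+H and 266, 246 and 269 in PH80. Cyp26b1, which breaks down retinoic acid, read 133, 65.8 and 127 in PH70, 327, 351 and 122 in PH80_G+H and 19.7, 28.4 and 47.9 in PH80. Gpx7, a peroxidase of the endoplasmic reticulum and the gene called lower, read 406, 360.1 and 317 in PH70, 436, 386 and 352 in PH80_G+H and 1015, 1001 and 746 in PH80, within 2-fold of PH70 by its interval (-0.32 to 0.55). The other 6 belong to the interferon response described next. The count of 15 was 1, 0 and 3 without PH80_G+H replicates 1, 2 and 3, 0 without PH70 replicate 2, PH80 replicate 1 or PH80 replicate 2, 30 without PH80 replicate 3, and 26 and 25 without PH80_HC replicates 1 and 3. It was 11 with edgeR (0.09%), 207 with DESeq2 (1.69%), 0 with every library scaled to the same total and 1 in the reduced set, so these calls depend on single libraries and on the setting.

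Most interferon-stimulated genes had a higher mean in the treated arm than in PH70, without a call against PH70 in limma over all 12 libraries. The limma fit of the 6 libraries alone called Ifit1 and Zbp1 (adjusted p = 0.026 for both). Of 27 tested genes of the list, 24 had a higher mean in PH80_G+H than in PH70 and 13 reached an unadjusted p under 0.05, all higher, while none passed the limma or edgeR threshold and 5 passed that of DESeq2. Their median log2 difference was 0.50 against PH70, beside -0.01 over all genes tested, and 17 of the 27 had no overlap between the groups, beside 13.5% of all genes. The list was chosen with results of these data known, so these values are a description. In PH80 the median difference from PH70 was -0.37. Averaged over the list, the log2 level relative to the PH70 mean was 0.60, 0.52 and 0.61 in PH80_G+H replicates 1 to 3, -0.03, 0.12 and -0.09 in PH70 and -0.17, -0.64 and -0.18 in PH80, so every treated library was above all PH70 and PH80 libraries. In PH80_HC it was 0.02, 0.55 and -0.02, with replicate 2 inside the treated range. In the reduced set the median was 0.47.

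Zbp1 (chr2:173206612-173218923), a sensor of Z-form nucleic acid that can start cell death, read 1181, 1130.4 and 1156 in PH80_G+H, 399, 431 and 482 in PH70 and 724, 388 and 573 in PH80 (log2 difference from PH70 1.40, adjusted p = 0.0902). Ifit1 (chr19:34640871-34650009), which binds foreign RNA ends, read 476, 354 and 393 in PH80_G+H, 143, 141 and 143 in PH70 and 153, 77.8 and 165 in PH80 (log2 difference 1.50, adjusted p = 0.096). Treated values were 2.65-fold and 2.83-fold those of PH70. Usp18, the protease that removes ISG15 and dampens the interferon receptor, read 857, 679 and 798 in PH80_G+H, 372, 431 and 361 in PH70 and 354, 280.4 and 336 in PH80. Isg15, a ubiquitin-like modifier, read 1161, 700.5 and 984 in PH80_G+H, 433, 375 and 268 in PH70 and 475, 176 and 439 in PH80. Rsad2 (viperin), an antiviral enzyme, read 557, 400.2 and 338 in PH80_G+H, 142, 190.1 and 209.6 in PH70 and 170.2, 85.2 and 175 in PH80. These 5 are the list members that DESeq2 called. Outside the list, the cytosolic RNA sensor Dhx58 read 616, 661 and 618 in PH80_G+H, 327, 302 and 368 in PH70 and 288, 207 and 271 in PH80. The large ubiquitin ligase Rnf213 read 2033, 2232 and 2182 in PH80_G+H, 962, 921 and 1329 in PH70 and 1008, 1009 and 1084 in PH80. In these 7 genes no treated library overlapped PH70, and DESeq2 gave adjusted p-values from 4.49e-05 to 0.0179.

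Against PH80 the test called 5 members of the list higher in the treated arm. Among them were Ifit1 (log2 difference 1.68, adjusted p = 0.0244), Usp18 (1.26, 0.0308), Irgm1 (1.10, 0.0294) and Gbp6 (2.06, 0.0352), and Dhx58, outside the list, was called as well (1.32, 0.0244). Gbp6, an interferon-induced GTPase, read 151, 187 and 175 in PH80_G+H, 98.6, 139 and 129 in PH70 and 39.4, 28.4 and 57.3 in PH80, so PH80 was the low group for it. A median of -0.17 against PH70 was found for 10 lymphocyte markers and of -0.07 for 24 macrophage and monocyte markers (0.16 and 0.15, the opposite sign, in the reduced set), without a call in limma, edgeR or DESeq2, and their part in the interferon values was not tested. In bulk liver RNA, more cells of a type and more RNA per cell cannot be told apart, here and below.

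The promoters of 3 of these genes are shown with their interferon-stimulated response element, the site through which interferon signals reach these genes. Sequences are the 250 bases before the start of the gene from RefSeq (GRCm38.p6), 5′ to 3′ on the gene's strand, with matches on either strand in capitals. The pattern searched was 2 copies of GAAA with any 2 bases between them.
Ifit1 (chr19:34640639-34640888, + strand): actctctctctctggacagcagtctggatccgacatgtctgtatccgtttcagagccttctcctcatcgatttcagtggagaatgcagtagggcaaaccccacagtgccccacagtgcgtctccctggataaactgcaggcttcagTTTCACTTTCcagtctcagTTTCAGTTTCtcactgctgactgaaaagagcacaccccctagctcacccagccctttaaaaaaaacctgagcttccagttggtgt
Isg15 (chr4:156200819-156201068, - strand): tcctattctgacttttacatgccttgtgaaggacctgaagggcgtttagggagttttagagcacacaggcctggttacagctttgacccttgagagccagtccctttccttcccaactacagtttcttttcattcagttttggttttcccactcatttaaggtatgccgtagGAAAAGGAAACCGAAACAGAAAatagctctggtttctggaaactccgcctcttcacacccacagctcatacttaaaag
Rsad2 (chr12:26456453-26456702, - strand): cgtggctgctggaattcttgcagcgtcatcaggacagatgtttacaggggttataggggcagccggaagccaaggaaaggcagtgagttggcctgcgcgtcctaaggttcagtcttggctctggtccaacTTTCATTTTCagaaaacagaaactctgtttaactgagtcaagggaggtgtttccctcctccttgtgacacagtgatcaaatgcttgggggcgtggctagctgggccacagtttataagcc
Ifit1 holds 2 matches, the first beginning 104 bases before the start, Isg15 a run of 3 overlapping matches from 78 bases, and Rsad2 1 match at 120 bases. Among the 20 list genes with a promoter in the table, 16 (80%) held a match, beside 333 of 9826 (3.39%) tested genes. Of the genes at an unadjusted p under 0.05, 25 of 308 higher (8.12%) and 6 of 268 lower (2.24%) held one. This motif was added after the data were seen. The list holds genes that interferon signals reach through this site, so its 80% follows from the choice of the list. A match is a description of the letters and not of binding.

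The mitosis list was lower than in PH70, while the G1 and S phase lists had medians near 0. Of the 29 mitosis genes, 0 had a higher mean log2 value in PH80_G+H than in PH70, beside 48.7% of all genes, and their median log2 difference was -0.49. None passed the limma, edgeR or DESeq2 threshold, and 3 reached an unadjusted p under 0.05, all lower. In PH80 all 29 had a higher mean than in PH70 (median 0.64, 1 called). Averaged over the list, the log2 level relative to PH70 was -0.63, -0.12 and -0.80 in PH80_G+H, 0.26, 1.36 and 0.53 in PH80 and -0.11, 0.06 and 0.05 in PH70. PH80_G+H replicate 2 lay next to PH70 replicate 1, and PH80_G+H and PH80 did not overlap. PH80_HC stood at -0.65, 0.33 and 0.24, with replicate 1 inside the treated range. All 29 were lower in the treated arm than in PH80 at an unadjusted p under 0.05, with none past the adjusted threshold. This list too was chosen with results of these data known, so its counts are a description.

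Kif20a, a motor of cytokinesis, read 800.2, 797 and 454 in PH80_G+H, 1069, 1481 and 1371 in PH70 and 859, 2678 and 1239.5 in PH80. Kif11, the motor that separates the spindle poles, read 156, 261 and 178 in PH80_G+H, 274, 367 and 363 in PH70 and 322, 665 and 399 in PH80. Cyclin A2 (Ccna2) read 583, 674 and 515 in PH80_G+H, 760.1, 996 and 961 in PH70 and 1191, 2001 and 1129 in PH80. In all 3 genes every treated library was below every PH70 library. Of the 29 genes of the mitosis list, 8 had no overlap between the groups, beside 13.5% of all genes. Mki67, the standard proliferation marker, overlapped between the groups, at 1038, 1192 and 772 in PH80_G+H and 1228, 1157 and 1247 in PH70, with PH80 at 1298, 3119 and 1428.

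The G1 list did not share the direction of the mitosis list, with 8 of its 16 tested members higher and 8 lower than PH70 in mean. The genes named below all had a higher mean. Ccnd1 (chr7:144929931-144939925), cyclin D1, which carries hepatocytes through G1, read 5269, 10463 and 7114 in PH80_G+H, 2954, 2802 and 2685 in PH70 and 4706, 5003 and 5954 in PH80. All treated libraries exceeded PH70 (log2 difference 1.38, adjusted p = 0.12, DESeq2 0.000161), and 2 of them exceeded all PH80 libraries. Cyclin E1 (Ccne1) read 169, 296 and 245 in PH80_G+H, 111, 121 and 109 in PH70 and 222, 352 and 355 in PH80. The transcription factor Mybl1 (A-Myb) read 327, 430.4 and 373 in PH80_G+H, 90.2, 87.7 and 176 in PH70 and 620.2, 788 and 723 in PH80, between the resections with no overlap. Cdkn1a, the cell cycle inhibitor p21, read 2771, 2428 and 1418 in PH80_G+H, 866, 1121 and 1534 in PH70 and 2533, 2596 and 1599 in PH80, with the third treated library inside the PH70 range. Of 16 genes of the G1 list, 3 reached an unadjusted p under 0.05 higher and 1 lower (DESeq2 called 2 higher), and of 30 genes of DNA replication and S phase 3 higher and 0 lower (DESeq2 1 higher), with medians of 0.00 and 0.06 (0.07 and 0.01 in the reduced set). Limma and edgeR called none.

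**Figure D3:**
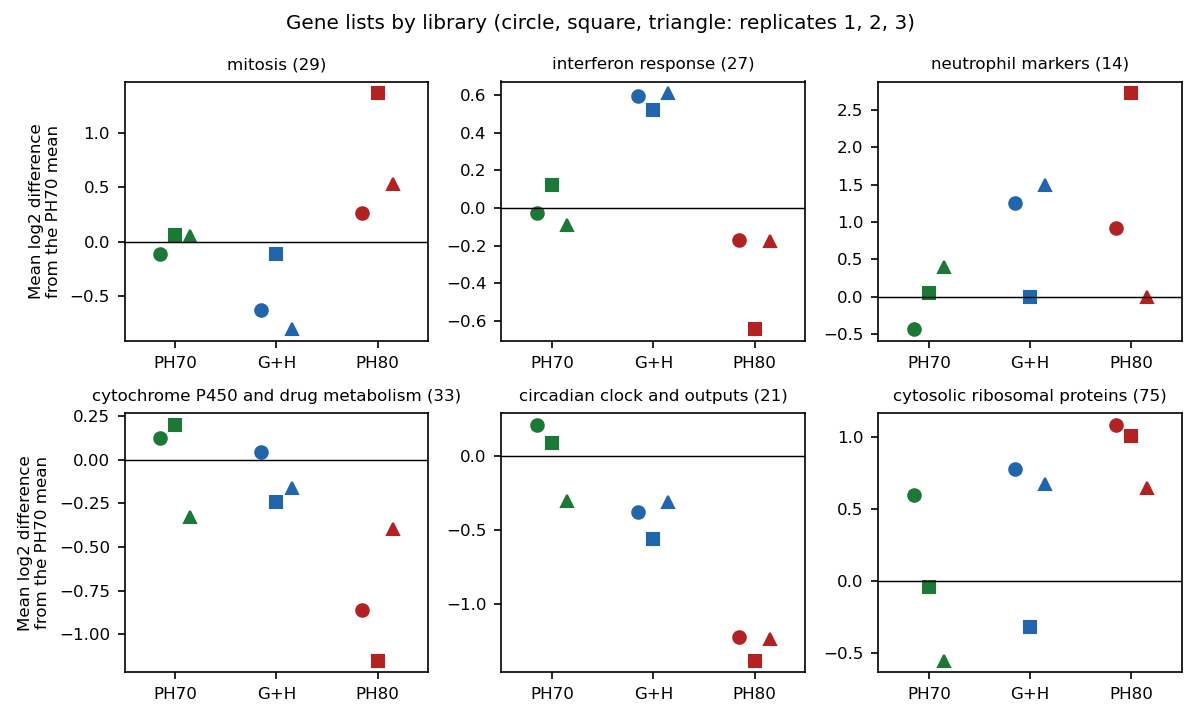
Mean log2 difference from the PH70 mean over the tested members of 6 gene lists (member number in brackets), per library, for PH70 (green), PH80_G+H (blue, G+H) and PH80 (red). Interferon genes are at 0.52 to 0.61 in the treated libraries, mitosis genes at -0.80 to -0.12, neutrophil markers are high in treated replicates 1 and 3 and in PH80 replicate 2, and ribosomal protein genes vary among libraries of the same group.

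The circadian clock genes had a median between the resections in the treated arm. Among 21 tested clock and output genes, 10 reached an unadjusted p under 0.05, 3 higher and 7 lower than PH70, DESeq2 called 2 lower and limma and edgeR none. The median log2 difference was -0.28, beside -1.26 in PH80, and -0.50 in the reduced set. Bhlhe41 (DEC2), a clock repressor, read 82.3, 95.1 and 40.1 in PH70, 7.36, 15.3 and 15.6 in PH80_G+H and 7.03, 1.5 and 3.12 in PH80. The activator Npas2 read 34.5, 25.6 and 75.8 in PH70, 107, 121 and 64.6 in PH80_G+H and 184, 141 and 166 in PH80. The repressor Cry1 read 71.4, 84.1 and 55.7 in PH70, 112, 135 and 126 in PH80_G+H and 221, 138 and 199 in PH80. For Cry1 the treated libraries were above every PH70 library and below every PH80 library. The labels do not state the hour at which livers were taken.

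Of the 24 secreted proteins and coagulation factors, 16 had an interval within 2-fold of PH70, beside 74.4% of all genes. Among the 24, 1 reached an unadjusted p under 0.05 (lower), with none called by limma, edgeR or DESeq2. The median was -0.09 in the treated arm and -0.33 in PH80, and -0.19 for the treated arm in the reduced set. Albumin (Alb) had a log2 difference of -0.13 (95% interval -1.77 to 1.50). Of 20 hepatocyte transcription factors, 2 reached an unadjusted p under 0.05 (lower), with none called by these tools and a median of -0.12 against -0.38 in PH80 (-0.19 in the reduced set). The intervals of 13 of the 20 lay within 2-fold of PH70. Cebpa, a driver of hepatocyte differentiation, read 6628, 6798 and 6772 in PH70, 5019, 4343 and 4403 in PH80_G+H and 3160.1, 1692 and 3393 in PH80, in steps without overlap.

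Of 33 drug metabolism genes tested, 3 reached an unadjusted p under 0.05 in the treated arm, all lower, and none was called by limma, edgeR or DESeq2, while limma called 12 lower and 1 higher in PH80. The median log2 difference from PH70 was -0.15 in the treated arm and -0.76 in PH80, and -0.29 for the treated arm in the reduced set. The intervals of 15 of the 33 lay within 2-fold of PH70 in the treated arm, beside 74.4% of all genes. Cyp2e1, which oxidises ethanol and paracetamol, read 57958, 76356 and 42125 in PH70, 37109, 31327 and 32133 in PH80_G+H and 10157, 10802 and 23914 in PH80. Cyp2a5, the coumarin hydroxylase, read 8517, 7325 and 5923 in PH70, 6488, 3536 and 4087 in PH80_G+H and 2825, 2745 and 3084 in PH80, with treated replicate 1 inside the PH70 range. Glul, the glutamine synthetase of hepatocytes around the central vein, read 11062, 16753 and 16187 in PH70, 11422, 9511 and 7639.9 in PH80_G+H and 6240.1, 4236 and 9049.6 in PH80, and the 20 pericentral genes had a median of -0.25 in the treated arm and -0.64 in PH80.

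Of 23 bile acid genes tested, 3 were lower and 1 higher at an unadjusted p under 0.05, none was called by limma, edgeR or DESeq2, and the median was -0.34 beside -0.77 in PH80 (-0.30 in the reduced set). The intervals of 11 of the 23 lay within 2-fold of PH70 in the treated arm, beside 74.4% of all genes. Cyp7a1, which catalyses the rate-limiting step from cholesterol to bile acids, read 2213, 1859 and 1356 in PH70, 960.3, 1177 and 1305 in PH80_G+H and 1143, 79.3 and 988 in PH80, below every PH70 library in the treated arm but with a wide interval of the log2 difference (-2.55 to 1.27). Slc51b, a subunit of the exporter that returns bile acids to blood, read 117, 96.9 and 125 in PH70, 348, 193 and 393 in PH80_G+H and 474, 1192 and 548 in PH80, in steps without overlap (log2 difference 1.40, adjusted p = 0.381). The Cyp8b1 promoter is shown because the gene is a known HNF4a target. Whether the agent had a part in the level of Cyp8b1 was not tested. The promoter is the 250 bases before the start (RefSeq, GRCm38.p6), with the single match to the HNF4a motif CAAAGTCCA in capitals, 67 bases before the start.
Cyp8b1 (chr9:121916306-121916555, - strand): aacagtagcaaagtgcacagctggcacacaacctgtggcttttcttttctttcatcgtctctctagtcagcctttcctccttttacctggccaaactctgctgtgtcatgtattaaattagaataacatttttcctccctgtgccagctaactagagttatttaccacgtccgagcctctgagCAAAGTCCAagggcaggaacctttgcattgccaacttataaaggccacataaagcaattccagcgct

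Across genes this motif was rare. CAAAGTCCA, searched on both strands of the 250 bases, was found in 54 of 9826 tested genes with a promoter (0.55%), in 1 of 308 higher at an unadjusted p under 0.05 (0.325%) and in 1 of 268 lower (0.373%). The STAT motif TTCCNGGAA was in 1.32% of all, 0.974% of the higher and 1.12% of the lower genes, and its outer letters GAA can be shared with the interferon motif. The E-box CACGTG was in 9.86%, 8.44% and 13.4%, and the D-box TTATGTAA in 0.662%, 0.649% and 1.49%. These windows are short, and a gene without a match may be bound elsewhere.

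In the other metabolic lists the medians were -0.03 for 30 genes of the urea cycle and amino acid breakdown, -0.04 for 23 of fatty acid oxidation and ketogenesis, and -0.11 for 20 of glucose output, glycogen and glycolysis. In PH80 they were -0.35, -0.56 and -0.56. Intervals within 2-fold of PH70 in the treated arm were found for 19 of the 30, 17 of the 23 and 11 of the 20, beside 74.4% of all genes. The 25 genes of the growth hormone axis and male-biased expression were further away, with a median of -0.37 (PH80 -0.92) and 23 of 25 lower than in PH70. In the reduced set, the median of the glucose list was -0.21, that of the fatty acid oxidation list -0.30 and that of the urea cycle list -0.16. Over all 40 lists, 754 different genes were tested and limma and edgeR called none, DESeq2 15, and 96 (12.7%) reached an unadjusted p under 0.05. That share cannot be set against the 5.93% of all genes, because the lists were chosen with results of these data known.

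The remaining lists held few genes away from PH70. Immediate early genes had a median of -0.34 in the treated arm and -0.38 in PH80, with 4 of 18 lower at an unadjusted p under 0.05 and 2 called lower by DESeq2. In the reduced set their median was -0.11. Fetal liver genes, which mature hepatocytes silence, had a median of 0.21 beside 0.96 in PH80 (0.46 in the reduced set), and 1 of 10 was higher at an unadjusted p under 0.05. Genes of fatty acid and cholesterol synthesis had a median of 0.27 beside -0.06, with 3 of 30 higher and 1 lower, and p53 targets 0.26 beside -0.12, with 3 of 16 higher. The 28 acute phase genes had a median of 0.11 (0.26 in the reduced set) and none at an unadjusted p under 0.05. The intervals of 8 of the 28 lay within 2-fold of PH70, beside 74.4% of all genes. The 9 genes of MHC class II, which antigen-presenting cells carry, had a median of -0.77 and of -0.15 in the reduced set. Of these 9, 0 had an interval within 2-fold and none reached an unadjusted p under 0.05. Limma and edgeR called no gene of these lists.

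**Figure D4:**
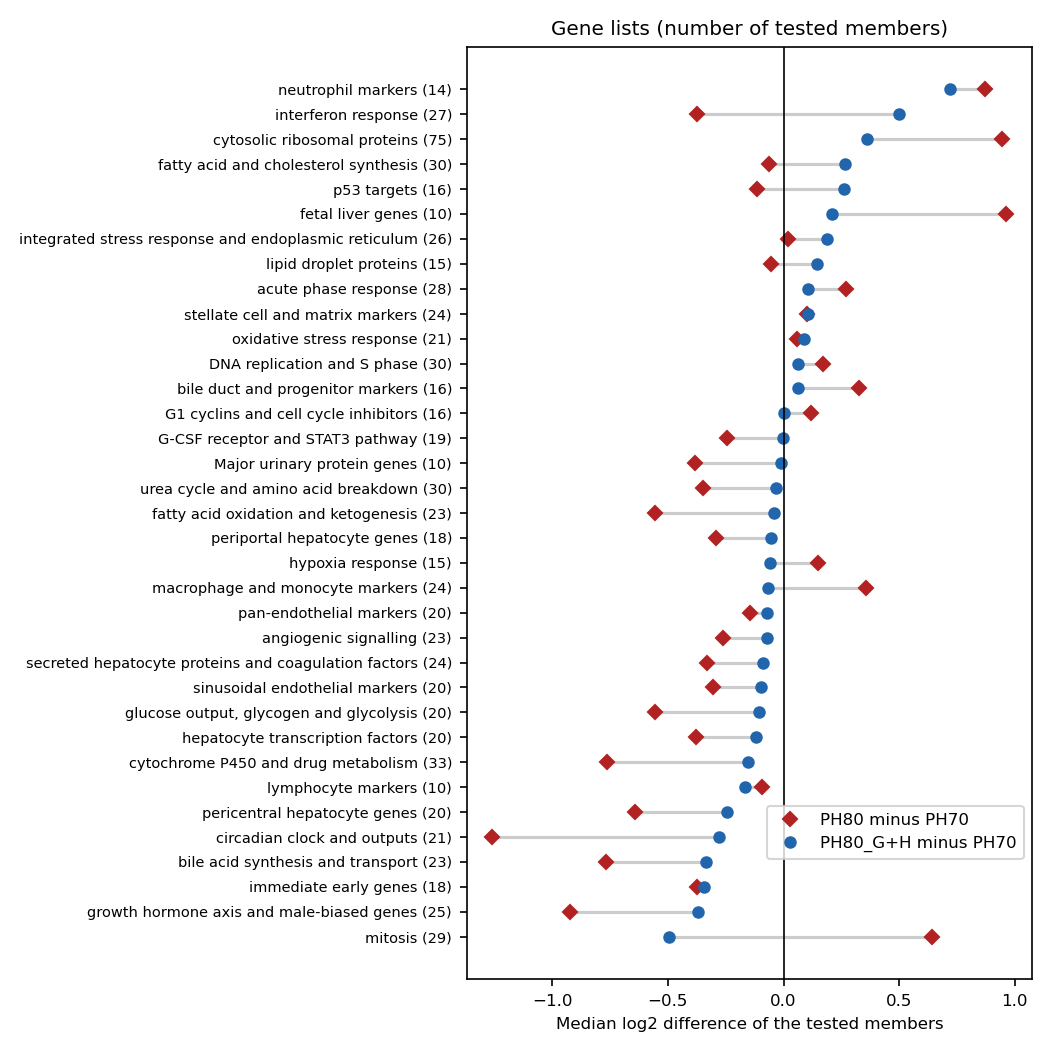
Median log2 difference from PH70 of the tested members of each gene list with at least 10 of them (number in brackets), for PH80_G+H (blue circles) and PH80 (red diamonds). The treated arm lies between 0 and PH80 for most metabolic lists, and on the other side of 0 from PH80 for the interferon response (0.50 and -0.37) and mitosis (-0.49 and 0.64).

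Endothelial markers had medians near 0. Of 20 pan-endothelial and 20 sinusoidal endothelial markers, none reached an unadjusted p under 0.05 or was called by limma, edgeR or DESeq2. Intervals within 2-fold of PH70 were found for 15 and 18, beside 74.4% of all genes. Stab2, a scavenger receptor of sinusoidal endothelium, read 1158, 951 and 1238 in PH70, 1146, 921 and 939.6 in PH80_G+H and 894, 1185 and 683 in PH80. Pecam1, the endothelial junction protein CD31, read 389.8, 539 and 642 in PH70, 436, 562 and 548 in PH80_G+H and 502, 541 and 365 in PH80. The medians of the 2 lists were -0.07 and -0.10 in the treated arm (-0.08 and -0.02 in the reduced set), and -0.15 and -0.30 in PH80.

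Neutrophil genes varied from library to library. S100a8, a subunit of calprotectin, read 482, 88.6 and 776 in PH80_G+H, 32.1, 71.3 and 114 in PH70 and 150.5, 2369 and 99 in PH80. Its partner S100a9 read 797, 165 and 1240.1 in PH80_G+H, 50.2, 109.7 and 185 in PH70 and 322, 2741 and 125 in PH80. Treated replicates 1 and 3 stood above PH70, replicate 2 did not, and the highest value was in PH80 replicate 2. Over the 14 tested markers, 13 had a higher mean in the treated arm, 4 reached an unadjusted p under 0.05 and none was called by limma, edgeR or DESeq2, with a median of 0.72 (PH80 0.87) and of 1.22 in the reduced set. The list mean relative to PH70 was 1.26, -0.0013 and 1.49 in PH80_G+H, -0.44, 0.05 and 0.39 in PH70 and 0.92, 2.72 and -0.01 in PH80. The summed level was 65444, 28091 and 47098 in PH80_G+H, 28235, 24447 and 23253 in PH70 and 65962, 128639 and 39694 in PH80. The sum is led by Wfdc21 and Lcn2, which hepatocytes also express. A further 9 entries of the list in the table were below the filter, among them Ly6g, a surface marker of neutrophils, at 1.84, 2.47 and 5.44 in PH80_G+H, 0, 0 and 2.23 in PH70 and 0, 15 and 0 in PH80.

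Cytosolic ribosomal protein genes, which are short, differed among libraries of the same group. All 75 had a higher mean in PH80_G+H (median 0.36), none had separate groups, and none reached an unadjusted p under 0.05 or was called by limma, edgeR or DESeq2. The list mean was 0.78, -0.32 and 0.67 in PH80_G+H and 0.60, -0.04 and -0.55 in PH70, lowest in the 2 libraries left out of the reduced set.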

How the data were processed

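TruSeq Stranded mRNA libraries were made from 100 ng of total liver RNA, per the labels' protocols. The submitters' processing notes name GRCm38 (mm10) and DESeq2; the sources used here do not name an aligner or counter. The deposited table holds a signal per gene, reads divided by a size factor for each library. Whole reads were recovered from its steps, and 100% of values came out whole within 0.01. The main test was limma 3.58.1 (R 4.3.3) on log2(value + 1), with group as the only term, all 12 libraries, a mean-dependent prior and Benjamini-Hochberg adjustment over 12217 genes at 0.05, tested on simulated data. edgeR 4.0.16 and DESeq2 1.42.0 were run on recovered reads as alternatives. Tables and plots were made with Python 3.11.15, pandas 2.3.3 and matplotlib 3.10.9.

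The genes compared, the gene lists and the tests were chosen with earlier results of these data known. Genes were named by rule: up to 12 per direction with the largest change among calls with a mean of at least 50 and separate groups, up to 4 called members of a list or the 2 highest members of a list without one, up to 6 per direction among the PH80 changes, and 10 fixed genes. Dsg1c, whose mean is under 50, and every other gene outside this rule were named after their values were seen. Gene positions are from GENCODE M21 (GRCm38), where 12188 tested symbols matched 1 gene, and promoters from RefSeq. One called gene of the comparison with PH80 is not reported here.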

Additional observations from a re-analysis of the deposited data

How the results depend on the processing

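Of the comparison PH80_G+H against PH70, 1 gene was called by the main test, 3 with a pseudocount of 4, 13 when only the 6 libraries were fitted, 67 by DESeq2, 3 with the trend on transcript length removed and 0 without PH70 replicate 3 and PH80_G+H replicate 2 (the reduced set), an alternative chosen after seeing the data. Members of the gene lists called were 0 by the main test, 1 with a pseudocount of 4, 5 in the fit of 6 libraries, 15 by DESeq2 and 1 with the length trend removed. PH80 against PH70 gave 233 calls with every library scaled to the same total, 956 by DESeq2, 287 with the replicate block and 248 in the reduced set. PH80_G+H against PH80 gave 0 without the intensity trend, 0 with equal totals, 207 by DESeq2, 9 with the replicate block, 27 with the length trend removed and 1 in the reduced set. The replicate block left 1 call in PH80_G+H against PH70. Deviations of same-numbered libraries from their group means correlated at 0.395, 0.083 and -0.235. Treated replicate 1 correlated best with PH70 replicate 1, treated replicate 2 with PH70 replicate 3 (0.427) and treated replicate 3 with PH70 replicate 1 (0.321). Treated replicate 2 and PH70 replicate 3 are also the 2 compared libraries with the steepest length trend. These correlations therefore cannot decide whether replicate numbers pair the libraries. Leaving out 1 library at a time gave 0 to 6 calls and 461 to 864 genes at an unadjusted p under 0.05 for PH80_G+H against PH70, 59 to 726 calls for PH80 against PH70, 0 to 30 for PH80_G+H against PH80, and 0 to 2 list members. The median distance between PH80_G+H and PH70 was 0.669 with no filter on low values and 0.493 with a minimum value of 50, that between PH80 and PH70 was 0.907 with no filter, that within PH70 was 0.706 and 0.433 under the same 2 filters, and that within PH80_G+H was 0.404 in the reduced set. Csf3r turned its direction with DESeq2 (-0.026) and lay between -0.42 and 0.58 with 1 library left out. Pecam1 turned with equal totals (0.021), with the length trend removed (0.00187) and in the reduced set (0.092), and lay between -0.20 and 0.16 with 1 library left out. Intervals within 2-fold were taken from limma only and were not computed for edgeR and DESeq2. Differences smaller than these intervals were not detectable with 3 libraries a group at this depth. The intervals are not adjusted for the number of genes tested, so larger differences could also miss the adjusted threshold.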

Other observations

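Of 26 genes of the integrated stress response and endoplasmic reticulum list, 18 had a higher mean in the treated arm than in PH70, with a median log2 difference of 0.19 (0.06 without PH70 replicate 3 and PH80_G+H replicate 2). At an unadjusted p under 0.05, 3 were higher and 3 lower, and DESeq2 called 1 lower. Fgf21, a fasting hormone of the liver, read 7.36, 2.97 and 19.7 in PH80_G+H, 25.4, 93.2 and 37.9 in PH70 and 29.5, 40.4 and 13.5 in PH80. The pseudokinase Trib3 read 188, 127 and 147 in PH80_G+H, 461, 279.7 and 384 in PH70 and 73.1, 144 and 86.5 in PH80. In both genes every treated library was below every PH70 library. Of the 26 genes, 8 had no overlap between the groups in either direction, beside 13.5% of all genes. The secreted endoplasmic reticulum protein Manf read 6338, 6211 and 8692 in PH80_G+H, 4204, 4086 and 2087 in PH70 and 8850.3, 5273 and 9205 in PH80. The chaperone Hyou1 read 4763, 9445 and 7178 in PH80_G+H, 3436, 4546 and 2955 in PH70 and 3731, 3820.5 and 6578 in PH80. None passed the limma threshold (adjusted p = 0.41, 0.249, 0.423 and 0.581).

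Some genes stood apart from PH70 in the treated arm and not in PH80. Cd207 (langerin), a lectin of antigen-presenting cells, read 57, 51.4 and 42.2 in PH80_G+H, 137, 144 and 95.9 in PH70 and 88.6, 157 and 114 in PH80. Slc22a3, an organic cation transporter, read 125, 171 and 120.3 in PH80_G+H, 47.2, 62.2 and 55.7 in PH70 and 53.4, 82.2 and 87.5 in PH80. Alas1, the first enzyme of heme synthesis, read 5843, 9657 and 9504 in PH80_G+H, 2046, 4869.7 and 3461 in PH70 and 4592, 4591 and 4667 in PH80. DESeq2 called all 3 (adjusted p = 0.00378, 0.00216 and 0.00633) and limma none (0.127, 0.126 and 0.169), and none differed from PH80 by limma. Of 16 bile duct and progenitor markers, 9 had a higher mean than in PH70, 3 were higher and 3 lower at an unadjusted p under 0.05, and the median was 0.06 (0.26 without PH70 replicate 3 and PH80_G+H replicate 2). The members Ly6d and Prom1 had log2 differences of 3.43 and 2.64. The duct keratin genes Krt7 and Krt19 were lower in every treated library than in any PH70 library, without a call. Krt7 read 18.4, 48.5 and 26.5 in PH80_G+H and 77.5, 113 and 51.3 in PH70, and Krt19 read 40.5, 61.8 and 34 and 64.2, 106 and 127, respectively. These genes were chosen after their values were seen.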
